A study of Mus musculus with 18 samples.

Results

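The genes described here are those of the integrin and laminin families, measured by RNA sequencing in 18 mouse mammary tumors. They were chosen by symbol alone: protein-coding genes named as an integrin alpha chain (Itga), an integrin beta chain (Itgb) or a laminin alpha, beta or gamma chain (Lama, Lamb, Lamc). The rule found 37 genes of the 57126 in the count table, of which 21685 were protein-coding. There were 18 integrin alpha chains, 8 integrin beta chains and 11 laminin chains. By known role they were set apart as 6 epithelial integrins, 8 leukocyte integrins, 12 other integrins and 11 laminins.

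Integrins are cell surface receptors made of an alpha and a beta chain, and the pairing sets which ligand is bound. Laminins are secreted trimers of an alpha, a beta and a gamma chain that build the basement membrane, the sheet on which the mammary ducts rest. Epithelial cells hold on to laminin through the integrins of the Itga3, Itga6 and Itgb4 chains, whereas the integrins of the Itgb2 and Itgb7 chains are carried by blood-derived immune cells and guide their adhesion and homing.

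All tumors came from female F1 hybrid mice of BALB/c and C57BL6/J parents that received adenovirus with Cre recombinase (Ad-Cre) into the mammary ducts at 10 to 12 weeks of age. Cre recombination left the ductal epithelium with a missense Trp53 allele over a deleted one in the 7 MaP R172H/- and the 5 MaP R245W/- tumors, and with no Trp53 in the 6 MaP -/- tumors, and cells outside the targeted epithelium carried wild-type Trp53. Mice of 3 MaP R172H/- and 3 MaP R245W/- tumors also carried Rosa26 LSL-TdTomato/+, a fluorescent reporter of recombination. JM663 and JM833 each gave 2 of the MaP -/- tumors (T1 and T2), so the 6 tumors stand for 4 animals. The sources differ on whether T1 or T2 of JM779 and of JM836 was sequenced, and the names used here are those of the labels (JM779-T1 and JM836-T1). The MaP R172H/- libraries were sequenced on a HiSeq 4000 and all others on a NovaSeq 6000, so in comparisons with MaP R172H/- tumors the sequencer and the genotype cannot be told apart. The paper classed all 7 MaP R172H/- tumors as nonmetaplastic adenocarcinomas, luminal B or HER2-enriched, and all MaP R245W/- and MaP -/- tumors as triple-negative. Molecular subtype therefore also follows genotype in those comparisons and cannot be told apart from it.

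The libraries held between 23113578 and 37365062 counts. Trp53 itself was measured at 10.8 to 50.1 CPM (read counts relative to library size, as scaled by edgeR's TMM method) in MaP R172H/- tumors, at 9.08 to 58.9 CPM in MaP R245W/- tumors and at 9.41 to 21.6 CPM in MaP -/- tumors. The mutant tumors YZ11 and JM1233 fell inside the MaP -/- range, and RM0014 just below it. The summed level of 10 epithelial marker genes, mainly keratins and claudins of simple epithelium, was 130 CPM in YZ7, 444 CPM in JM1233 and 146 CPM in JM779-T1, against 1153 to 10865 CPM in the other tumors, so 1 tumor of each genotype was low for these markers. YZ7 was not low for basal epithelium, whose 8 markers summed to 897 CPM there, second to YZ4, against 119 CPM in JM1233 and 38.5 CPM in JM779-T1. In bulk tumor RNA, fewer cells of a type and less RNA per cell cannot be told apart. Results below are given without either set of tumors where that changes them.

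Levels of different genes were compared as CPM per kilobase of exon. The exon length of a gene was the union of all its annotated exons, so ranks depend on the annotation. On that scale Itgb1, the beta chain shared by most matrix receptors, stood first with a median of 173 CPM per kilobase over the 18 tumors. High medians were also measured for Itga6, at 45.9 CPM per kilobase, Itga3 at 37.7 and Lamc1 at 32.6 CPM per kilobase. The ranges of these genes overlapped widely, from 5.27 to 139 CPM per kilobase for Itga3 and from 13.96 to 100.4 for Itga6, so their order was not fixed from tumor to tumor. The family ended with Lamc3 at a median of 0.17 CPM per kilobase and Itgad at 0.01 CPM per kilobase. Itgad, a leukocyte alpha chain, had between 0 and 26 counts and was the 1 gene of the 37 too low to be tested.

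Levels varied widely from tumor to tumor. From the lowest to the highest tumor, CPM spanned 759-fold for Lamb3, 618-fold for Lama3 and 241-fold for Itgb6, chains that are typical of epithelium, and 358-fold for the low Lamc3. The span was 2.97-fold for Itga2b, 3.07-fold for Lamc1, 3.24-fold for Itga1, 3.25-fold for Lama4 and 3.36-fold for Itgav. In the heat map of the tested genes, YZ7 and JM779-T1 are low for Itgb6 and Lamb3, and JM1126 is high for Lama3 and Lamb3.

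**Figure D1:**
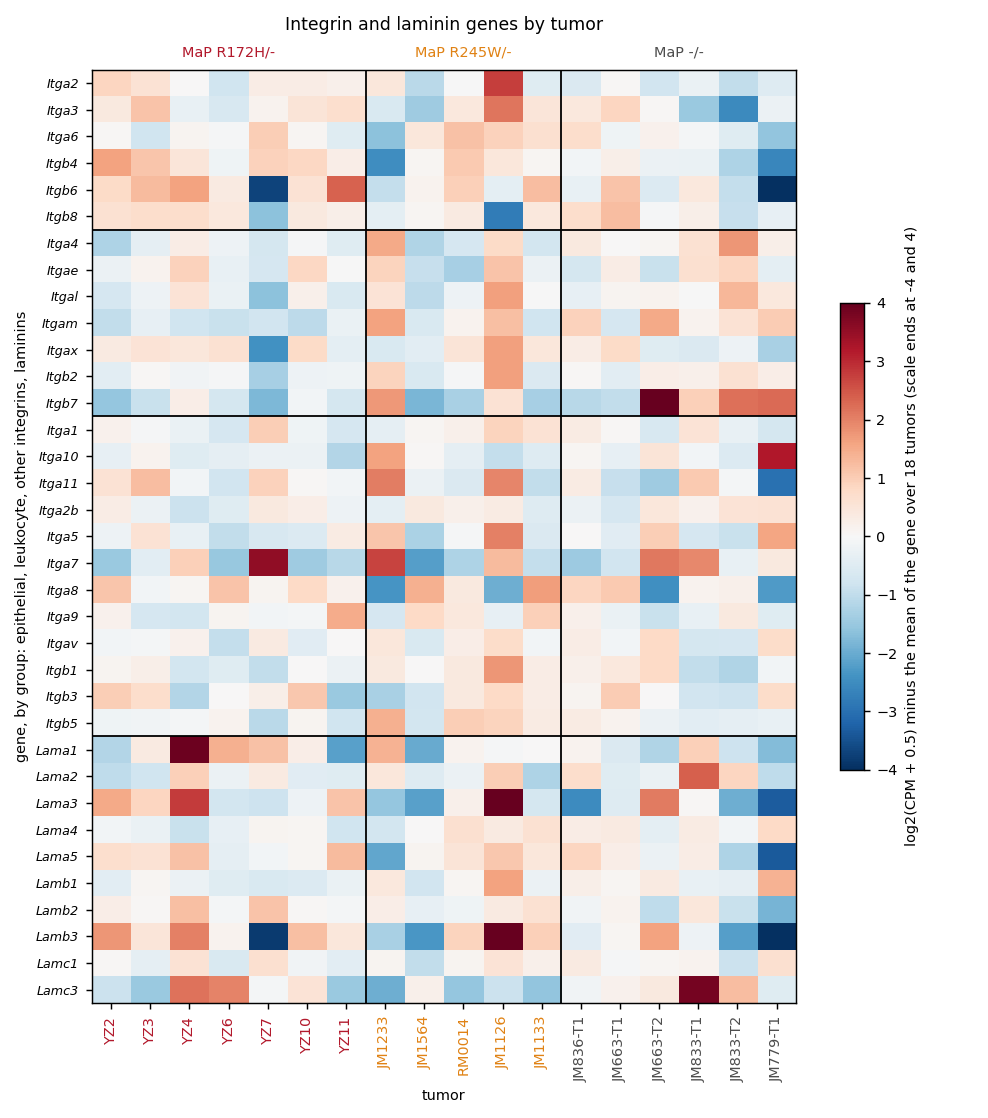
Rows are 35 of the 36 tested genes in 4 groups (epithelial, leukocyte and other integrins, laminins), columns the 18 tumors by genotype; color gives log2(CPM + 0.5) minus the mean of the gene over all tumors. Single tumors, such as YZ7, JM1126 and JM779-T1, stand out more than whole genotypes.

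Each mutant was first compared with the MaP -/- tumors, asking which adhesion genes differ between a tumor with mutant p53 and one without p53; both comparisons share the same MaP -/- tumors. In MaP R172H/- against MaP -/- tumors, 2 of the 36 tested genes passed an FDR of 0.05 in edgeR's quasi-likelihood test, both lower: Itgam and Itgb7. DESeq2 called 5, where it called 11.4% of 30101 genes, and above an absolute log2 fold change of 2 edgeR called Itgb7 alone of the 36, where 1.37% of all genes passed. Over all 20954 genes tested, 8.4% passed, 3.67% higher and 4.73% lower, so the share among the integrins and laminins was near that of the whole table. A further 8 genes had an unadjusted p below 0.05 without passing, which made 10 of 36, where 24.7% of all genes had one. The median log2 fold change of the 36 genes was 0.10, and 20 of them were above 0; over all genes the median was 0.00.

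In MaP R245W/- against MaP -/- tumors no integrin or laminin passed in edgeR, and 0% of the 21452 genes tested did (0 genes). At an unadjusted p below 0.05 there were 6 of the 36 genes, against 11.8% of all genes (2527). DESeq2 called 1 of the family, Lamc3, where it called 1.71% of 24838 genes. The median log2 fold change of the 36 genes was 0.36, with 25 above 0. Over all genes tested the median was 0.02, with 51.8% above 0, and over protein-coding genes it was 0.12.

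The direct comparison of the mutants, from a fit of all 18 tumors, is the test of whether the 2 mutants differ. Itgam and Itgb5 passed, both lower in MaP R172H/- tumors, 2 of 36 genes, where 9.4% of 22481 genes passed, 2.91% higher and 6.49% lower. DESeq2 called the same 2 genes, where it called 12.3% of 29957 genes. Neither exceeded an absolute log2 fold change of 2, which 2.34% of all genes did in edgeR. At an unadjusted p below 0.05 there were 5 of the 36 genes, against 25.9% of all genes. The median log2 fold change of the 36 genes was -0.34, with 9 above 0. Over all genes tested the median was 0.00, with 50.2% above 0, and over protein-coding genes it was -0.07. In no comparison did a gene of the family have groups that failed to overlap, whereas 4.5% of the 17522 genes with a mean of at least 1 CPM did so in MaP R172H/- against MaP -/- tumors, 1.28% in MaP R245W/- against MaP -/- tumors and 5.3% between the mutants.

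**Figure D2:**
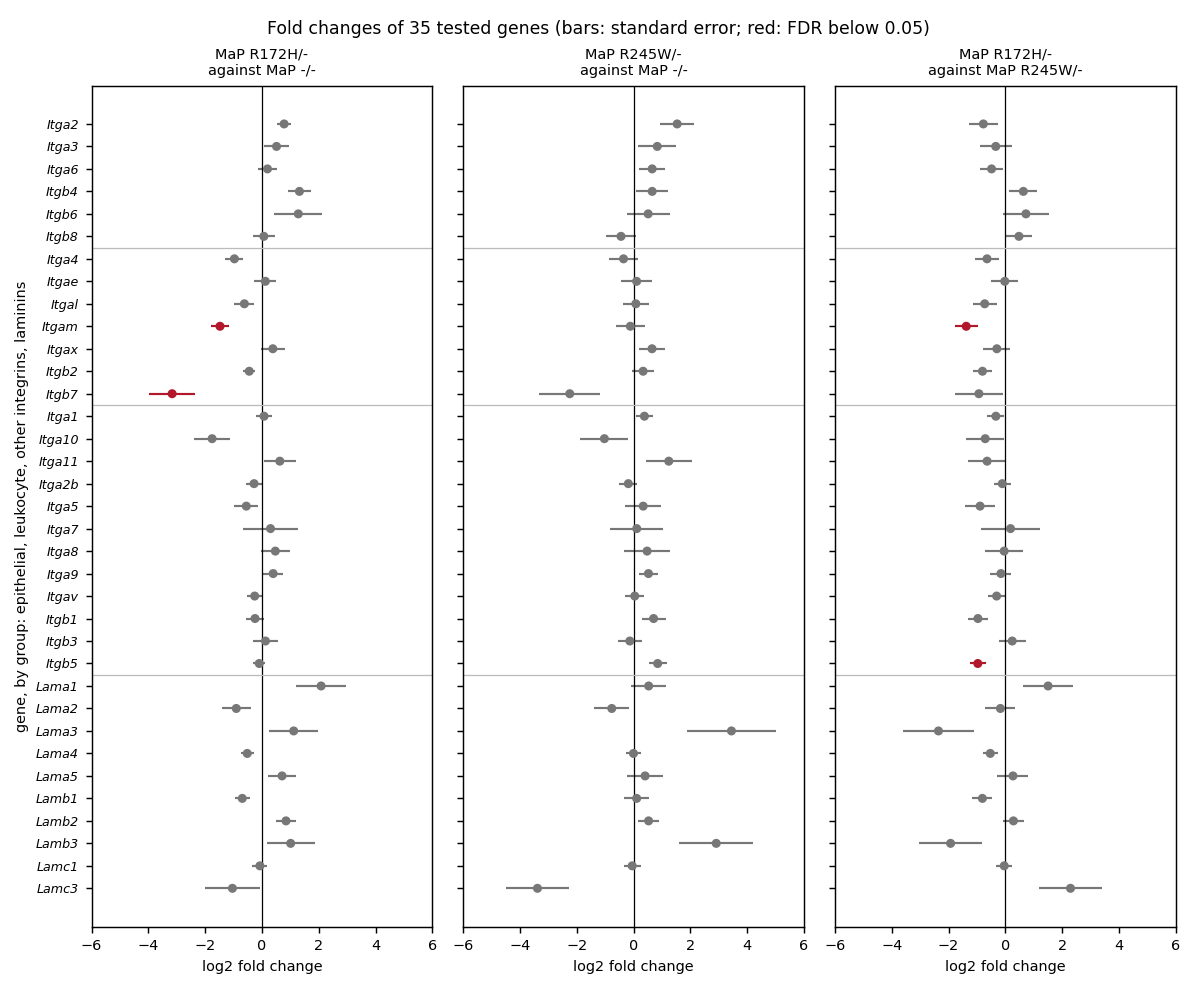
Log2 fold changes (horizontal axis) of 35 of the 36 tested genes (vertical axis, in the same 4 groups) in the 3 comparisons; points are edgeR estimates, bars their standard error, and red marks an FDR below 0.05. Itgam and Itgb7 are red for MaP R172H/- against MaP -/- tumors, Itgam and Itgb5 between the mutants, and no gene is red for MaP R245W/- against MaP -/- tumors. The standard error is widest for Lamc3 in MaP R172H/- against MaP -/- tumors and for Lama3 in the comparisons with MaP R245W/- tumors.

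Among the epithelial integrins none passed the test, and the ratio of the 2 chains of the hemidesmosome receptor passed over single tumors but not with tumors of 1 mouse summed. Itga6 and Itgb4 together form the integrin that anchors epithelial cells to laminin through keratin filaments. Itgb4 (ENSMUSG00000020758.16, GRCm39 chromosome 11, 115865333 to 115899239, plus strand) had 140 to 490 CPM in the MaP R172H/- group, with a median of 285 CPM, and from 25.6 to 185 CPM in MaP -/- tumors, with a median of 134 CPM. The MaP R245W/- tumors had 331 CPM in RM0014, 216 in JM1126, 169 in JM1133, 166 in JM1564 and 27.8 in JM1233. Itgb4 was above every MaP -/- tumor in 6 of the 7 MaP R172H/- tumors, but its log2 fold change of 1.32 (SE 0.40) missed the threshold in edgeR (FDR 0.0557). DESeq2 called it (FDR 0.0154), and edgeR did so without YZ6 (FDR 0.0492), without JM663-T1 (FDR 0.0474) or without JM779-T1 (FDR 0.0492). Of the exon length of Itgb4, 14.9% lies opposite exons of Galk1.

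Itga6 (ENSMUSG00000027111.17, GRCm39 chromosome 2, 71575960 to 71689757, plus strand) did not follow Itgb4. Its median was 513 CPM in MaP R172H/- tumors, within 291 to 992 CPM, and 460 CPM in MaP -/- tumors, within 166 to 825 CPM. In MaP R245W/- tumors it was 1143 CPM in RM0014, 944 in JM1126, 785 in JM1133, 692 in JM1564 and 159 in JM1233, where JM1233 alone was low. The log2 fold change between the mutants was -0.49 (SE 0.41, FDR 0.486 in edgeR), and it was -0.97 (FDR 0.0216) without YZ7, JM1233 and JM779-T1.

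The log2 ratio of Itgb4 to Itga6 per kilobase, which does not depend on library scaling, was -0.26 ± 0.78 (SD, n = 7) in MaP R172H/- tumors, -1.48 ± 0.26 (SD, n = 5) in MaP R245W/- tumors and -1.47 ± 0.52 (SD, n = 6) in MaP -/- tumors. The MaP R172H/- ratio exceeded every MaP -/- tumor in 4 of 7 tumors and every MaP R245W/- tumor in 6 of 7. It was higher than in MaP -/- tumors by 1.21 (two-sided exact permutation p = 0.0076, adjusted p = 0.039 over 18 tests of ratios) and higher than in MaP R245W/- tumors by 1.22 (exact permutation p = 0.0076, adjusted p = 0.039). Between MaP R245W/- and MaP -/- tumors the difference was -0.01 (exact permutation p = 0.959). With the 2 tumors of 1 mouse summed, the difference from MaP -/- tumors was 1.31 (adjusted permutation p = 0.0818). The mutants have 1 tumor a mouse, so their difference stayed at 1.22, and its adjusted permutation p became 0.0682 through the adjustment over all 18 tests alone. Leaving out 1 tumor gave differences of 1.02 to 1.38 against MaP -/- tumors, and the adjusted p stayed below 0.05 in 3 of 13 cases (without YZ6, YZ7 or JM663-T1); against MaP R245W/- tumors the differences were 1.03 to 1.37, with 2 of 12 cases below 0.05 (without YZ6 or YZ7). The summed level of 8 basal epithelial markers was 262 to 2537 CPM in MaP R172H/- tumors, 55.5 to 277 CPM in MaP R245W/- tumors and 38.5 to 512 CPM in MaP -/- tumors, and its part in the ratio was not tested.

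The sequence before the annotated start of Itgb4 is shown because its ratio to its partner chain passed over single tumors, though not with tumors of 1 mouse summed. The 250 bases end at the base before the Ensembl canonical transcript (GRCm39, chr11:115865083-115865332, plus strand, 5′ to 3′), and capitals mark the match to TGANTCA. This pattern is looser than the AP-1 site, because N stands for any base. The AP-1 site has C or G at that place, whereas the match has A.
Itgb4: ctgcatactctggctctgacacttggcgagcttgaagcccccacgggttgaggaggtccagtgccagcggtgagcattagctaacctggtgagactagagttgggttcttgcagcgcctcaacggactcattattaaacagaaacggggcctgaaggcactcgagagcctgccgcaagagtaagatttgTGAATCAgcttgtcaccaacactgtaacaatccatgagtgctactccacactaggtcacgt
The match begins 61 bases before the start. Searched on both strands, TGANTCA occurred in 6.17% of the 21770 promoters of the same length and in 3 of the 36 integrin and laminin promoters searched. Itgb4 was picked for display after the matches were seen, and a match is a description of letters, not of binding.

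The other epithelial integrins are the collagen receptor chain Itga2, the laminin receptor chain Itga3, and Itgb6 and Itgb8, which pair with Itgav and release active TGF-beta. Itga2 was between 19.7 and 63.7 CPM in MaP R172H/- tumors (median 42.5) and between 17.2 and 35.8 CPM in MaP -/- tumors (median 23.6), with 5 of 7 MaP R172H/- tumors above every MaP -/- tumor. Its log2 fold change was 0.78 (SE 0.24, FDR 0.0647 in edgeR; FDR 0.0299 in DESeq2), and it passed in edgeR without YZ6 (FDR 0.0221) or without JM663-T1 (FDR 0.0453). Among MaP R245W/- tumors JM1126 had 238 CPM and the other 4 had 16.2 to 47.5 CPM.

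Itga3 was highest in JM1126, at 806 CPM, against 30.7 to 403 CPM in the other tumors. Itgb6 was 0.44 CPM in YZ7 and 0.26 CPM in JM779-T1, both low for the 10 epithelial markers, and 5.79 to 62.3 CPM in the other tumors. Itgb8 was 5.49 CPM in JM1126 and 12.9 CPM in YZ7, against 21.5 to 97.8 CPM elsewhere. The FDR of these 3 genes was 0.371 or above in every comparison in edgeR, and log2 fold changes lay between -0.44 and 1.28.

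Lama3 and Lamb3 are chains of the laminin that epithelial cells lay down beneath hemidesmosomes, and 1 tumor stood far above every other for both. Lamb3 (ENSMUSG00000026639.19, GRCm39 chromosome 1, 192890007 to 193027705, plus strand) was 2254 CPM in JM1126, 132 in JM1133, 128 in RM0014, 27.8 in JM1233 and 13.2 in JM1564, and at most 280 CPM in any other tumor. Lama3 was 2775 CPM in JM1126, 57.1 in RM0014, 30.4 in JM1133, 16.55 in JM1233 and 10.7 in JM1564, and at most 349 CPM, in YZ4, elsewhere. Log2 fold changes of MaP R245W/- against MaP -/- tumors were 3.44 for Lama3 (SE 1.55) and 2.91 for Lamb3 (SE 1.303), with FDR values of 0.419 and 0.415 in edgeR.

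Those folds rested on JM1126, which the paper lists as a nonmetaplastic sarcoma. Without it, the log2 fold change was -0.90 for Lama3 (FDR 0.719) and 0.13 for Lamb3 (FDR 0.963 in edgeR). JM1126 also had the highest summed fibroblast markers, at 29577 CPM against 2466 to 13822 CPM in the other tumors, and the highest summed leukocyte markers, at 2027 CPM against 382 to 1782 CPM. The part of its histology and of these markers in the result was not tested. In MaP R172H/- against MaP -/- tumors the log2 fold changes were 1.12 for Lama3 and 1.01 for Lamb3, with FDR values of 0.449 and 0.485. The log2 ratio of Lamb3 to Lamb1, a beta chain of other laminins, passed no test (lowest adjusted permutation p 0.615).

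**Figure D3:**
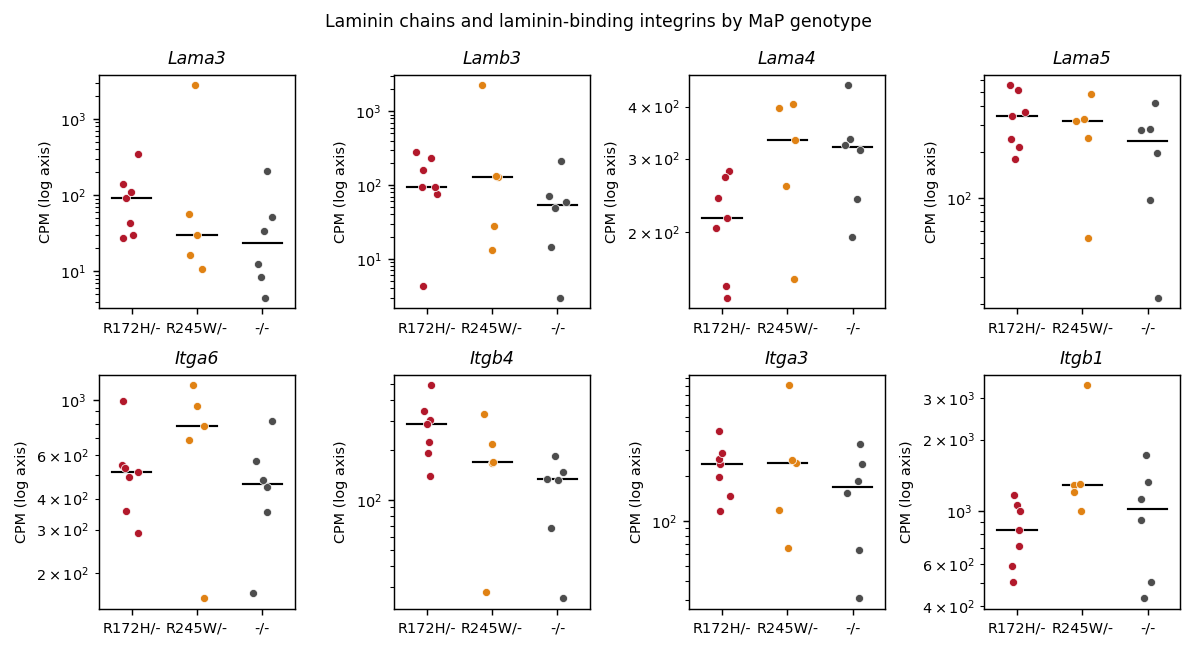
CPM on a log axis (vertical) of Lama3, Lamb3, Lama4, Lama5 and 4 laminin-binding integrin chains in the tumors of each genotype (horizontal); points are tumors and bars are group medians. A single MaP R245W/- tumor, JM1126, lies above all others for Lama3, Lamb3, Itga3 and Itgb1, and 6 of 7 MaP R172H/- tumors lie above all MaP -/- tumors for Itgb4.

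The remaining laminin chains belong to the basement membranes of epithelium, vessels and muscle. Lama5, the alpha chain of laminin-511 in mature epithelial basement membrane, was 179 to 553 CPM in MaP R172H/- tumors, 54.6 to 484 CPM in MaP R245W/- tumors and 21.9 to 421 CPM in MaP -/- tumors. Lama4, the alpha chain of vessel walls, was 139 to 279, 154 to 405 and 194 to 450 CPM in that order. Lama1 was 166 CPM in YZ4, which also had the highest summed basal epithelial markers, at 2537 CPM, and 1.98 to 29.0 CPM in the other tumors. Lama2, an alpha chain of muscle and stroma, was highest in JM833-T1, at 250 CPM, the tumor with the highest summed adipocyte markers (4375 CPM).

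Of the beta and gamma chains, Lamb1 had 239 to 383 CPM in MaP R172H/- and 285 to 960 CPM in MaP -/- tumors and did not pass, with a log2 fold change of -0.69 (SE 0.27, FDR 0.131 in edgeR). Lamb2, the chain of vessel and neuromuscular basement membranes, had a log2 fold change of 0.85 (SE 0.37, FDR 0.17), and Lamc1, the commonest gamma chain, one of -0.07 (SE 0.27, FDR 0.896). Lamc3 was the only family member that DESeq2 called in MaP R245W/- against MaP -/- tumors (log2 fold change -3.31, FDR 0.0357; edgeR -3.39, FDR 0.36). Its counts were low: 31.96 CPM in JM833-T1, 1.13 to 4.88 CPM in the other MaP -/- tumors, and 2.13, 0.77, 0.29, 0.27 and 0.09 CPM in JM1564, JM1126, RM0014, JM1133 and JM1233. The JM1233 value stands for 3 counts.

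Within a tumor, the 5 alpha chains were compared as shares of their summed counts per kilobase. On that scale Lama5 was the leading alpha chain in 7 of 7 MaP R172H/- tumors, 3 of 5 MaP R245W/- tumors and 4 of 6 MaP -/- tumors. The order depended on the exon lengths used, 15715 bases for Lama4 and 11448 for Lama5. By counts alone, Lama4 exceeded Lama5 also in YZ6, YZ7, YZ10, JM1564, RM0014, JM1133, JM663-T1 and JM833-T1. Lama4 led in JM1233, JM833-T2 and JM779-T1, at 43.7%, 50.5% and 88.1%, and Lama3 in JM1126, at 75.5%. The mean share of Lama5 was 50.9% ± 10.2 (SD, n = 7), 36.7% ± 17.4 (SD, n = 5) and 35.6% ± 17.9 (SD, n = 6) in MaP R172H/-, MaP R245W/- and MaP -/- tumors. None of the 15 comparisons of a share passed (exact permutation, adjusted p 0.446 or above). The closest was Lama5 in MaP R172H/- against MaP -/- tumors, 15.3 percentage points higher (exact permutation p = 0.074).

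**Figure D4:**
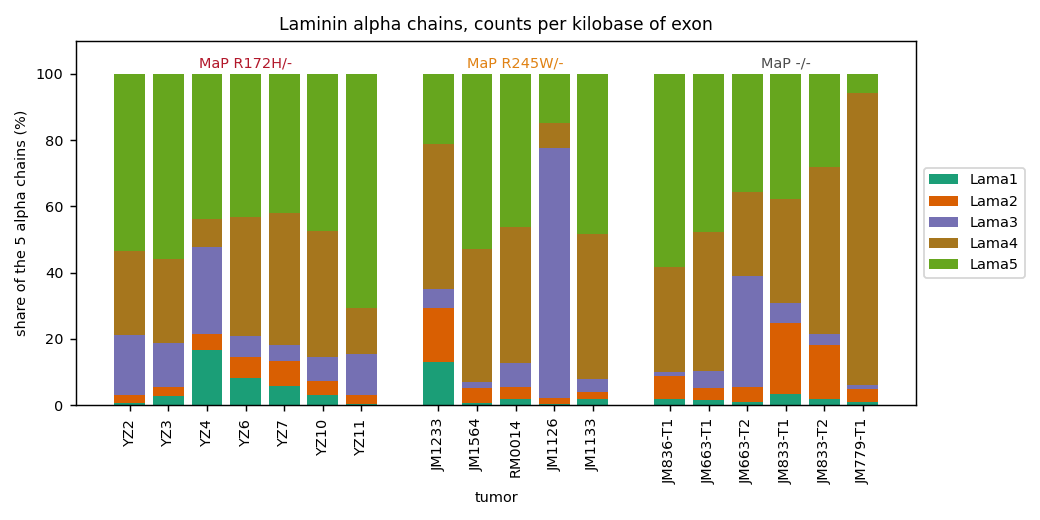
Each bar is a tumor and shows the share (%) of the 5 laminin alpha chains in their summed counts per kilobase of exon. Lama5 is the largest share in all 7 MaP R172H/- tumors, Lama3 in JM1126, and Lama4 in JM1233, JM833-T2 and JM779-T1.

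Of the 7 leukocyte integrins tested, 2 passed as lower in MaP R172H/- tumors, set against MaP -/- tumors, where 4.73% of all genes tested did so. Itgam encodes CD11b, the alpha chain of the complement receptor on neutrophils and macrophages. Itgam (ENSMUSG00000030786.19, GRCm39 chromosome 7, 127661808 to 127717753, plus strand) was between 6.45 and 11.7 CPM in MaP R172H/- tumors, with a median of 7.90 CPM, and between 8.53 and 41.1 CPM in MaP -/- tumors, with a median of 24.1 CPM. In MaP R245W/- tumors it was 44.1 CPM in JM1233, 33.1 in JM1126, 15.5 in RM0014, 9.08 in JM1564 and 7.90 in JM1133. Of the MaP -/- tumors only JM663-T1, at 8.53 CPM, lay among the MaP R172H/- values, and 5 of 7 MaP R172H/- tumors were below every MaP -/- tumor.

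Itgam fell by 1.48 on the log2 scale (SE 0.31, 2.78-fold lower, FDR 0.011 in edgeR) in MaP R172H/- against MaP -/- tumors. The FDR was 0.0029 to 0.029 when any 1 tumor was left out, 0.0311 without YZ7, JM1233 and JM779-T1 and 0.0138 without YZ11. The call was lost without the TdTomato carriers (-1.28, FDR 0.119) and with the leukocyte markers as a covariate (-1.24, FDR 0.258), settings in which 2.4% and 0.864% of all genes passed. Against MaP R245W/- tumors Itgam fell by 1.38 (SE 0.41, FDR 0.0424 in edgeR), and between MaP R245W/- and MaP -/- tumors the log2 fold change was -0.11 (SE 0.50, FDR 0.941). The difference between the mutants was lost in 11 of the 18 fits that left out 1 tumor, of either mutant or of MaP -/-: YZ2, YZ3, YZ4, YZ6, YZ7, YZ10, JM1233, RM0014, JM1126, JM836-T1 or JM833-T2. It was smallest without JM1233 (-0.96, FDR 0.144), and -1.08 (FDR 0.206) without YZ11, JM1233 and RM0014.

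Of the exon length of Itgam, 67.4% is shared on the same strand with the read-through gene Gm49368. The authors' counting gave Gm49368 at most 0.16 CPM in any tumor, and summing the 2 genes left the fold change at -1.47 (FDR 0.0108). The 250 bases before the start of Itgam are shown because it was the gene of the family called against both other genotypes (GRCm39, chr7:127661558-127661807, plus strand, 5′ to 3′), and capitals mark matches to GAGGAA, the core bound by the myeloid factor PU.1, or to its reverse complement.
Itgam: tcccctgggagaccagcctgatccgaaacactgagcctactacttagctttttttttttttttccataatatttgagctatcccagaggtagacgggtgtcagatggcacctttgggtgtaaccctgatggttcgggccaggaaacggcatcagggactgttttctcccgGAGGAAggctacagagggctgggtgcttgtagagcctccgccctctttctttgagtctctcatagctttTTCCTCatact
The 2 matches begin 80 and 11 bases before the start. The core occurred on either strand in 22.9% of the 21770 promoters and in 14 of the 36 integrin and laminin promoters searched.

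Itgb7, the beta chain of the gut-homing and mucosal integrins of lymphocytes (ENSMUSG00000001281.11, GRCm39 chromosome 15, 102124429 to 102140379, minus strand), was between 1.97 and 9.92 CPM in MaP R172H/- tumors (median 4.77). The MaP -/- tumors ranged from 3.50 to 171.7 CPM (median 27.5), and the MaP R245W/- tumors had 28.2 CPM in JM1233, 12.2 in JM1126, 2.98 in RM0014, 2.94 in JM1133 and 1.91 in JM1564. Of the MaP -/- tumors, JM836-T1 and JM663-T1 were at 3.50 and 3.88 CPM, inside the MaP R172H/- range, and JM663-T2, from the same mouse as JM663-T1, was at 171.7 CPM.

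Itgb7 fell by 3.16 on the log2 scale in MaP R172H/- tumors (SE 0.80, FDR 0.028 in edgeR). Without JM663-T2 it was -2.02 (FDR 0.0844), and the call was also lost without YZ2 (FDR 0.0581), YZ3 (FDR 0.0558), YZ6 (FDR 0.0538) or YZ11 (FDR 0.0525). It was lost without YZ7, JM1233 and JM779-T1 (FDR 0.0569), without the TdTomato carriers (FDR 0.165) and with the leukocyte marker covariate (-1.83, FDR 0.495). In MaP R245W/- against MaP -/- tumors the log2 fold change was -2.25 (SE 1.08, FDR 0.44).

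The other leukocyte integrins did not pass in any comparison. Itga4, the alpha chain of the VCAM-1 receptor, was 13.2 to 39.3 CPM in MaP R172H/- tumors and 32.5 to 110 CPM in MaP -/- tumors, with 6 of 7 MaP R172H/- tumors below every MaP -/- tumor (log2 fold change -0.97, SE 0.31, FDR 0.0745 in edgeR, 0.0408 in DESeq2). Of its exon length, 20.8% lies opposite exons of Cerkl. Itgal, the alpha chain of LFA-1, had a log2 fold change of -0.62 (SE 0.35, FDR 0.292), and Itgax, or CD11c of dendritic cells and macrophages, one of 0.38 (SE 0.43, FDR 0.621). Itgae, which pairs with Itgb7 on mucosal T cells, had one of 0.12 (SE 0.38, FDR 0.878).

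Itgb2, the common beta chain of Itgal, Itgam and Itgax, was 24.4 to 64.2 CPM in MaP R172H/- tumors and 46.2 to 94.9 CPM in MaP -/- tumors (log2 fold change -0.45, SE 0.22, FDR 0.22 in edgeR). The 8 leukocyte markers had a median log2 fold change of -0.50 in that comparison, close to that of Itgb2. In MaP R245W/- against MaP -/- tumors the median was -0.01, and Itgb2 had 0.33 (SE 0.39, FDR 0.757 in edgeR). Set against Ptprc (CD45), a single leukocyte marker, Itgb2 was higher instead. Its ratio to the other leukocyte markers was not tested. The log2 ratio of Itgb2 to Ptprc was 1.27 ± 0.25 (SD, n = 7) in MaP R172H/- tumors, 1.28 ± 0.32 (SD, n = 5) in MaP R245W/- tumors and 0.55 ± 0.39 (SD, n = 6) in MaP -/- tumors. It was higher than in MaP -/- tumors by 0.71 in MaP R172H/- (exact permutation p = 0.0041, adjusted p = 0.039) and by 0.73 in MaP R245W/- tumors (exact permutation p = 0.0087, adjusted p = 0.039).

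Ptprc itself passed as lower in MaP R172H/- against MaP -/- tumors (log2 fold change -1.24, FDR 0.0176 in edgeR). With the tumors of 1 mouse summed, the ratio differences were 0.74 (adjusted permutation p = 0.0545) and 0.75 (adjusted permutation p = 0.0818). When 1 tumor was left out they ranged from 0.58 to 0.82 and from 0.60 to 0.84, and the adjusted p stayed below 0.05 in 4 of 13 cases (without YZ6, YZ7, JM663-T1 or JM833-T1) and 1 of 11 cases (without JM833-T1).

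The summed level of 8 leukocyte markers was 382 to 904 CPM in MaP R172H/- tumors, 622 to 2027 CPM in MaP R245W/- tumors and 828 to 1782 CPM in MaP -/- tumors. In MaP R172H/- against MaP -/- tumors, 2 of 8 leukocyte markers (Ptprc and Cd53), 2 of 8 macrophage markers (Adgre1 and Mrc1) and 4 of 8 neutrophil markers (S100a8, S100a9, Retnlg and Camp) were lower in edgeR, and no T-cell or dendritic-cell marker passed. Over all genes tested, 4.73% were lower. The part of these markers in the differences of the leukocyte integrins was not tested beyond the leukocyte covariate. Summed macrophage markers were 1048 to 1220 CPM in MaP R172H/- and 874 to 2515 CPM in MaP -/- tumors. Summed neutrophil markers were 14.9 to 384 CPM in 6 MaP R172H/- tumors and 344 to 2154 CPM in MaP -/- tumors; the other MaP R172H/- tumor, YZ11, had 8059 CPM, of which 7996 CPM was Ltf. Without Ltf the sums were 8.07 to 88.5 CPM and 47.4 to 766 CPM. No marker of these lists was below 0.1 CPM in all tumors.

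**Figure D5:**
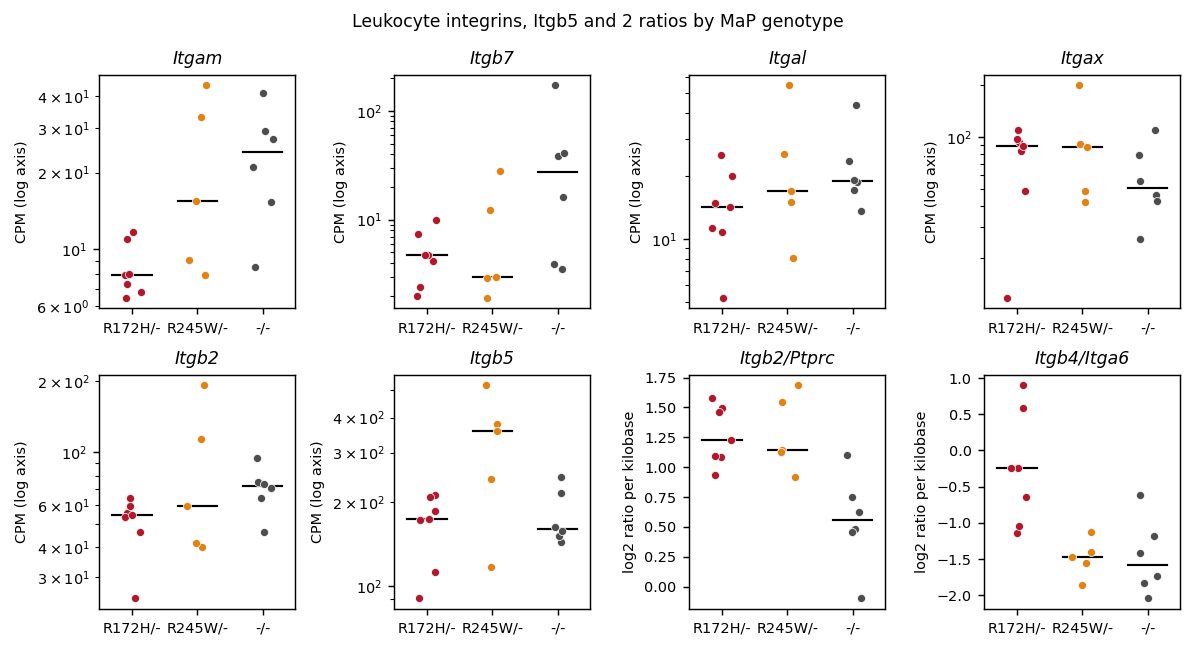
CPM on a log axis of 5 leukocyte integrins and Itgb5, and log2 ratios per kilobase of Itgb2 to Ptprc and of Itgb4 to Itga6, in the tumors of each genotype (horizontal); points are tumors and bars are group medians. Itgam lies at 6.45 to 11.7 CPM in all 7 MaP R172H/- tumors, and JM663-T2 lies far above the other tumors for Itgb7.

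Among the 12 other integrins, which bind collagens, fibronectin and vitronectin on many cell types, 1 gene passed. It was lower in MaP R172H/- against MaP R245W/- tumors, where 6.49% of all genes tested were. Itgb5 pairs with Itgav in a vitronectin receptor (ENSMUSG00000022817.16, GRCm39 chromosome 16, 33649988 to 33771137, plus strand). It was 521 CPM in JM1233, 380 in RM0014, 358 in JM1126, 241 in JM1133 and 117 in JM1564, against 90.6 to 212 CPM in MaP R172H/- tumors (median 174) and 144 to 245.1 CPM in MaP -/- tumors (median 160). JM1564 lay among the MaP R172H/- values and the other 4 MaP R245W/- tumors above them.

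Between the mutants, the log2 fold change of Itgb5 was -0.97, lower with R172H (SE 0.29, FDR 0.0437 in edgeR). It was 0.85 (SE 0.32, FDR 0.374) in MaP R245W/- against MaP -/- tumors and -0.10 (SE 0.22, FDR 0.823) in MaP R172H/- against MaP -/- tumors. The call was lost in 12 of 18 fits that left out 1 tumor (YZ2, YZ3, YZ4, YZ7, YZ10, YZ11, JM1233, RM0014, JM1126, JM663-T1, JM663-T2 or JM833-T2), with an FDR of up to 0.128 without JM1233. Without YZ11, JM1233 and RM0014 the log2 fold change of Itgb5 was -0.45 (FDR 0.445), and without YZ7, JM1233 and JM779-T1 it was -0.63 (FDR 0.164).

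Itgb1 reached 3382 CPM in JM1126 and was 1003 to 1305 CPM in the other MaP R245W/- tumors, 503 to 1170 CPM in MaP R172H/- tumors and 431 to 1726 CPM in MaP -/- tumors. Its log2 fold change between the mutants was -0.97 (SE 0.36, FDR 0.101 in edgeR). Itga5, its partner in the fibronectin receptor, was also highest in JM1126, at 277 CPM, and 28.04 to 205 CPM elsewhere. Itgav, the alpha chain shared by the Itgb3, Itgb5, Itgb6 and Itgb8 receptors, kept to 135 to 452 CPM, and Itgb3 to 36.5 to 221 CPM.

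Among the collagen and specialised receptors, Itga1 was 47.6 to 154 CPM and Itga9 46.5 to 241 CPM, the latter highest in YZ11. Itga8, whose ligand nephronectin is found in basement membranes, was 13.9 to 245.2 CPM, with the 4 lowest values in JM663-T2, JM1233, JM779-T1 and JM1126. Itga7, the laminin receptor chain of muscle and Schwann cells, was 164 CPM in YZ7, the tumor with the highest summed Schwann cell markers (1144 CPM), and 90.9 CPM in JM1233, the tumor with the highest summed skeletal muscle markers (1125 CPM), with a median of 8.98 CPM over all tumors. Itga11, a collagen receptor chain of fibroblasts, was 0.68 to 38.5 CPM, and the platelet chain Itga2b 3.24 to 9.62 CPM. Itga10 was 32.9 CPM in JM779-T1 and 1.13 to 10.6 CPM elsewhere, and 33.5% of its exon length is shared with the read-through gene Gm42957.

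Chains that act as partners were then compared across the 16 mice, as log2 CPM, with the tumors of 1 mouse summed. The pairs were fixed as 10 known heterodimers or trimer neighbors, and the values of a pair share a library. Lama3 and Lamb3 varied together (Pearson r = 0.854, Spearman rho = 0.871), also without JM1126 and YZ4 (r = 0.743). Within the 7 MaP R172H/- mice, which share a sequencer, r was 0.682 for Lama3 and Lamb3, and within the 9 other mice 0.926.

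Among the leukocyte chains, Itgal and Itgb2 had r = 0.877 and rho = 0.726, and r = 0.671 without JM1126 and YZ7. Itgam and Itgb2 had r = 0.737 and rho = 0.765, and r = 0.585 without JM1126 and JM1233. Within the 7 MaP R172H/- mice r was 0.802 for Itgal and 0.219 for Itgam, and within the 9 other mice 0.89 and 0.787. The relation of Itgam and Itgb2 was not detected within the MaP R172H/- mice (permutation p = 0.659), but 7 mice cannot show its absence. For these 2 pairs and for Lama3 and Lamb3, permutation p-values adjusted over the 10 pairs were 0.000675 or below for r and 0.00483 or below for rho, with 100000 resamples.

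Itga6 and Itgb4 had r = 0.693 (adjusted permutation p = 0.00796) but rho = 0.45 (adjusted permutation p = 0.102), and r was 0.0868 without JM1233 and JM779. Within the 7 MaP R172H/- mice r was 0.0861 (permutation p = 0.868), so the relation was not detected there, but 7 mice cannot show its absence. Within the 9 other mice r was 0.977, and 0.864 in the 7 of them left without JM1233 and JM779. For Itga5 and Itgb1 r was 0.644 (adjusted permutation p = 0.0113) and rho 0.597 (adjusted permutation p = 0.0291), with r = 0.531 without JM1126 and JM779, 0.548 within the MaP R172H/- mice and 0.613 within the others. For Lamb1 and Lamc1 r was 0.548 (adjusted permutation p = 0.039) and rho 0.5 (adjusted permutation p = 0.0713), but r was 0.331 without JM1126 and JM779, -0.283 within the MaP R172H/- mice and 0.831 within the others. The r of Itgax and Itgb2 (0.489), of Itgae and Itgb7 (0.461) and of Itgb6 and Itgav (-0.399) did not pass, with adjusted permutation p-values of 0.0772, 0.0816 and 0.126. By rank, Itgae and Itgb7 did pass (rho = 0.594, adjusted permutation p = 0.0291), whereas Itgax and Itgb2 (rho = 0.141, adjusted permutation p = 0.602) and Itgb6 and Itgav (rho = -0.438, adjusted permutation p = 0.104) did not. Within the 7 MaP R172H/- mice r was 0.908 for Itgae and Itgb7 and 0.915 for Itgax and Itgb2, and within the 9 other mice 0.522 and 0.323. YZ7 stood far below the other MaP R172H/- mice for both Itgax (11.7 CPM) and Itgb2 (24.4 CPM). The r of that pair within the genotype was not computed without YZ7. Over all mice it was 0.307 without JM779 and YZ7.

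Other genes of cell to matrix adhesion were taken as 4 lists. Of 7 hemidesmosome and tetraspanin genes none passed in any comparison. The closest were Col17a1, a collagen of the hemidesmosome, between the mutants (log2 fold change 4.47, SE 1.44, FDR 0.0586 in edgeR; 500 CPM in YZ4) and Cd151, the tetraspanin that binds laminin receptors, in MaP R172H/- against MaP -/- tumors (0.68, SE 0.21, FDR 0.0666). Of 12 other basement membrane genes, collagen IV chains and nidogens among them, none passed either.

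Of 22 focal adhesion adaptors and kinases, 1 was higher in MaP R172H/- against MaP -/- tumors (3.67% of all genes tested were) and 1 lower in MaP R172H/- against MaP R245W/- tumors (6.49% of all genes tested were). The first was Ilk, the integrin-linked kinase, at 0.39 to 2.33 CPM against 0.00 to 0.36 CPM (log2 fold change 2.63, SE 0.60, FDR 0.0172 in edgeR), both very low levels. Without YZ3 or YZ4 it was too low to be tested. Of the exon length of Ilk, 77.4% lies opposite exons of Taf10, so its level is uncertain. The second was Lims1, its partner PINCH1, at 90.02 to 136 CPM against 182 to 288 CPM, with no overlap (log2 fold change -0.92, SE 0.20, FDR 0.0063). Between the mutants, 5.3% of the genes with a mean of at least 1 CPM had no overlap. Of 14 other integrin ligands, 13 could be tested in MaP R172H/- against MaP -/- tumors, where 4.73% of all genes tested were lower. Icam2, the endothelial ligand of Itgal and Itgb2, fell in MaP R172H/- tumors (2.25 to 3.77 against 3.72 to 8.58 CPM, log2 fold change -0.91, SE 0.24, FDR 0.0322). The call was lost in 9 of 13 fits that left out 1 tumor (YZ3, YZ4, YZ6, YZ10, YZ11, JM663-T2, JM833-T1, JM833-T2 or JM779-T1), with an FDR of up to 0.0681. All 8 endothelial markers had a log2 fold change below 0 in that comparison (median -0.41), 2 of them called (Pecam1 and Esam), and their part in the result was not tested. Of the exon length of Icam2, 24.5% lies opposite exons of Prr29. In MaP R245W/- against MaP -/- tumors none of the 4 lists held a gene that passed in edgeR.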

How the data were processed

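Bulk RNA libraries of 18 mammary tumors were made by the authors with a stranded kit from total RNA depleted of ribosomal RNA, with shorter reads for MaP R172H/- tumors. They were aligned with STAR 2.7.10b to GRCm39 and counted with RSEM 1.3.3 on GENCODE M34, after read checks with FastQC 0.11.9, per the submitters' processing notes and the methods. The deposited values are RSEM estimated counts per gene, given as whole numbers without normalization. The strand setting of the counting is not given in the sources used here, and reads shared by overlapping genes are split by estimation, so the counts of overlapping genes are uncertain.

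Gene names, exon lengths and sequences came from GENCODE M39 on GRCm39, matched by identifier (56620 of 57126 genes). Counts were tested with edgeR 4.0.16 (filterByExpr, TMM, quasi-likelihood test) in R 4.3.3, Benjamini-Hochberg over all genes, called at an FDR below 0.05. Each mutant was fitted with the MaP -/- tumors alone, and the contrast of the mutants came from all 18 tumors. CPM values used TMM library sizes. Ratios used counts plus 0.5 per kilobase with two-sided exact permutation tests, adjusted over 6 ratios in 3 comparisons; correlations used 100000 resamples (Python 3.11.15). Only the edgeR fits were tested on simulated data. Alternatives were DESeq2 1.42.0, other scaling and filters, marker covariates, an absolute log2 fold change above 2, and leaving out tumors. No column of counts lacked a sample (0 columns).

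The design foresaw raw counts; estimated whole counts were used unchanged. The genes, lists and pairs were chosen with earlier results of these data known. Described with values were genes called, genes above 20 CPM on average and their partners, and up to 4 called genes of each adhesion list. Groups came from the genotype labels. The values of 1 gene of the family, which is included in the counts and adjustments, are not reported here.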

Additional observations from a re-analysis of the deposited data

Results flagged for a closer look

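In 105 sets of values, each 1 gene in 1 genotype, the extreme tumor was set against the others by Dixon's test, and 12 stood apart, where chance gives about 1 in 20, or 5.25. Of these, 5 were low values of YZ7 among the MaP R172H/- tumors: Itgb6 at 0.44 CPM (others from 14.9), Itgb8 at 12.9 CPM (others from 48.9), Lamb3 at 4.30 CPM (others from 75.8), Itgax at 11.7 CPM (others from 48.5) and Itgb2 at 24.4 CPM (others from 46.4). YZ7 also had the lowest sum of the 10 epithelial and of the 8 leukocyte markers of its genotype, but the second highest sum of basal epithelial markers of all tumors (897 CPM).

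Among the MaP R245W/- tumors, JM1233 was low for Itga6, at 159 CPM (others from 692), and for Itgb4, at 27.8 CPM (others from 166), and it had the lowest summed epithelial markers of that genotype. JM1126 was low for Itgb8, at 5.49 CPM (others from 31.5), and high for Itgb1, at 3382 CPM (others up to 1305). Single high values were Itga4 in JM833-T2, at 110.1 CPM (others up to 48.6), Itga10 in JM779-T1, at 32.9 CPM (others up to 4.77), and Itga9 in YZ11, at 241 CPM (others up to 96.5).

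The mutants differed from each other, in the direct edgeR contrast, for Itgam (log2 fold change -1.38) and Itgb5 (log2 fold change -0.97). Both calls were lost in more than 10 of the 18 fits that left out 1 tumor.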

How the results depend on the processing

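In MaP R172H/- against MaP -/- tumors, the 2 integrins and laminins called became 5 in DESeq2 (Itga2 and Itgb4 higher, Itga4, Itgam and Itgb7 lower, where DESeq2 called 11.4% of all genes). They became 0 without the TdTomato carriers (2.4% of all genes called, against 8.4%) or with the leukocyte marker covariate (0.864%), 1 without YZ7, JM1233 and JM779-T1 (Itgam; 9.03%), 1 without YZ11, JM1233 and RM0014 (Itgam; 6.4%), 1 above an absolute log2 fold change of 2 (Itgb7) and 1 to 4 without 1 tumor. In MaP R245W/- against MaP -/- tumors, DESeq2 called 1 (Lamc3), and leaving out 1 tumor gave 0 in each of 11 fits. Between the mutants, where 9.4% of all genes were called, the 2 calls became 0 without a filter on low counts (3.1%), without the TdTomato carriers (1.03%), with the epithelial (10.2%) or the leukocyte covariate (7.73%), with only the mutant tumors in the fit (7.18%), above an absolute log2 fold change of 2, or without YZ11, JM1233 and RM0014 (4.59%). They became 1 (Itgam) with at least 10 counts in every tumor or with the tumors of 1 mouse summed, and 0 to 2 without 1 tumor. Without YZ7, JM1233 and JM779-T1 (11.3%), Itgb5 was lost and Itga6 was called as lower in MaP R172H/- tumors. With tumors of 1 mouse summed, the log2 ratio differences of Itgb4 to Itga6 were 1.31 against MaP -/- and 1.22 against MaP R245W/- tumors (the latter moved in the adjustment alone), and those of Itgb2 to Ptprc 0.74 and 0.75 for MaP R172H/- and MaP R245W/- against MaP -/- tumors, none of which passed (adjusted permutation p from 0.0545 to 0.0818). Without 1 tumor, Itgb4 to Itga6 ranged from 1.02 to 1.38 and from 1.03 to 1.37, and Itgb2 to Ptprc from 0.58 to 0.82 and from 0.60 to 0.84. The difference of Itgb6 to Itgav between the mutants ranged from 0.0707 to 1.37 and passed without YZ7. The cause was not tested. Of 2802 recomputed fold changes of the family, 168 took the other sign, and no called one did. No paired analysis was possible because replicate numbers were given in order within each genotype and the tumors of different genotypes came from different mice. With 5 to 7 tumors a group, standard errors of Lama3 and Lamb3 limited what could be detected.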
